A study of Arabidopsis thaliana with 6 samples.

Results

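Transcripts of 10 genes, 9 of starch debranching and breakdown and the orphan gene QQS, were followed in whole Arabidopsis thaliana seedlings, either wild type (Col-0) or of the mutant line vil1-1. The genes were taken by locus identifier, and all 10 were found among the 33602 rows of the count tables and among the 25005 genes of the authors' deposited table of vil1-1 against Col-0. They were proposed with results of this comparison in view, LDA from the counts among them. Their differences between the genotypes, with the adjusted p-values of fits over all genes, are therefore descriptions and no independent evidence.

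Each genotype had 3 libraries, which the series describes as biological replicates. All seedlings were 1 day old, from seeds kept dark and cold at 4 °C for 3 days of stratification, and grew at 22 °C under 16 h light and 8 h dark. The line vil1-1 carries a mutant allele of VIL1, a PHD finger gene of the VIN3-like family whose product works with Polycomb repressive complex 2, and no other allele or treatment is named for either group. Pooling of seedlings is not described in the labels. Library totals were 46917 to 66546 counts, so that 1 count was worth 15.0 to 21.3 counts per 1000000 (CPM), and a count of 0 allowed up to 45.1 to 63.9 CPM in a library. VIL1 had 0 counts in every library, which leaves the genotype labels unchecked by the counts, whereas the authors' deposited table lists it lower in vil1-1 (log2 fold change -0.91, adjusted p = 0.000309). Genes that the authors' deposited table puts below a mean log2 CPM of 0 took 2.77 to 9.77 of every 10000 counts, with the 2 highest shares in Col-0 replicates 2 and 3.

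Starch is stored in plastids as granules of branched glucan. Its breakdown starts with phosphorylation of the granule surface by glucan, water dikinase, continues with removal of that phosphate by glucan phosphatases, and proceeds through beta-amylases that release maltose. Debranching enzymes cut the branch points, either to shape amylopectin while it is made or to free linear chains while it is degraded. QQS encodes a small protein known only from Arabidopsis thaliana, and lines with reduced QQS hold more leaf starch. QQS is also known for DNA methylation and expression that vary between natural accessions and in chromatin mutants.

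QQS (AT3G30720) lies at chr3:12349047-12349933 on the plus strand of TAIR10.1 and has 3 annotated exons in its longest-coding transcript. Its reading frame spans 180 bases in 2 coding segments, chr3:12349461-12349478 and chr3:12349565-12349726, or 59 codons before the stop. It is by far the shortest of the group, in which the other coding lengths run from 1140 bases in SEX4 to 4200 bases in GWD1. The frame is shown whole because no other member is built this way, with the start and stop codons in capitals.
QQS coding sequence: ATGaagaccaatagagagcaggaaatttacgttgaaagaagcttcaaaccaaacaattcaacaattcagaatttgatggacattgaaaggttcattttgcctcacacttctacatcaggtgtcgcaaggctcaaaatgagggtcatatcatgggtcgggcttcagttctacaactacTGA

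The 250 bases before the annotated start of the 4 members that passed the test in the authors' deposited table were read from TAIR10.1 and are shown 5′ to 3′ along the gene's own strand, since these are the promoters whose genes differed between the genotypes. Capitals mark the motifs searched on both strands, which were GATAAG (I-box), CATGCA (RY), CACGTG (G-box), ACGTG (the core of abscisic acid response elements, which a G-box always contains), AAAATATCT (evening element) and TATCCA.
LDA, chr5:1221198-1221447, plus strand: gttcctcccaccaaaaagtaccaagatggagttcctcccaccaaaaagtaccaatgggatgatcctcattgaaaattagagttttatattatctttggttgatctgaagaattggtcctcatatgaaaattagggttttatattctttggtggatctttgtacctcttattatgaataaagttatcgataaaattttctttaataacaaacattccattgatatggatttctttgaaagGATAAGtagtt
QQS, chr3:12348797-12349046, plus strand: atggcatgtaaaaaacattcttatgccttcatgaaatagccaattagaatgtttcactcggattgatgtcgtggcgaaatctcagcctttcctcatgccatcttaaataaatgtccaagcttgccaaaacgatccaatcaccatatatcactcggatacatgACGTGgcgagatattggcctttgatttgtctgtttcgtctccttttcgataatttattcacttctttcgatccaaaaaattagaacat
GWD1, chr1:3590929-3591178, minus strand: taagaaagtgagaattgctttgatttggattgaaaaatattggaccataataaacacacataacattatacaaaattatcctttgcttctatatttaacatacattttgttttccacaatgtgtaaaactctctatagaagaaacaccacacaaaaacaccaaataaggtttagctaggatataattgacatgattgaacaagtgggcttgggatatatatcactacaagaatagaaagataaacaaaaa
SEX4, chr3:19353729-19353978, minus strand: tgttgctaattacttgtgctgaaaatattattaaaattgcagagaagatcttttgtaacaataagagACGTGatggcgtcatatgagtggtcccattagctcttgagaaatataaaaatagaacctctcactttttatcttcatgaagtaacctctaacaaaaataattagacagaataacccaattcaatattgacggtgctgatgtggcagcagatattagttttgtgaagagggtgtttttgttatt

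LDA held GATAAG 11 bases before its start, a motif found in 12.3% of the 27443 protein-coding promoters of this length. The far end of the LDA window lies inside the neighbouring gene AT5G04350 (chr5:1220829-1221269, plus strand). ACGTG stood 88 bases before the start of QQS and 183 bases before that of SEX4. It was also present in ISA1 and DPE1, hence in 4 of the 10 members, and in 22.9% of all promoters. None of the 6 motifs was found in the GWD1 window. The motif matches describe letters only.

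LDA, the limit dextrinase that cuts branch points of short glucans, was the member with the clearest signal in the counts, and it was lower in vil1-1. LDA (AT5G04360, chr5:1221448-1228841, plus strand, 28 exons) gave 22, 28 and 24 counts in the Col-0 libraries (in the order of replicates 1, 2 and 3, used throughout), and 7, 8 and 7 in the vil1-1 libraries. These are 450.2, 420.8 and 371.8 CPM in Col-0 against 149.2, 162.1 and 110.6 CPM in vil1-1. Every Col-0 library lay above every vil1-1 library, and the ranges were far apart.

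Mean LDA levels were 414 ± 39.6 CPM for Col-0 against 141 ± 26.8 CPM for vil1-1 (SD, n = 3 each). The log2 fold change was -1.53 (SE 0.35, edgeR's quasi-likelihood test, Benjamini-Hochberg adjusted p = 0.00283 over 942 genes). In that test 3.72% of the genes were called, 0.955% in the lower direction, and the groups' CPM ranges did not overlap for 17.1%. The direction held in every setting tried. The call was lost in DESeq2 (adjusted p = 0.0849). It was also lost when Col-0 replicates 2 and 3 were both left out (edgeR adjusted p = 0.0799), a setting added after the data were seen, in which the lone wild-type library is assumed to vary like the mutant ones. Seedlings were sequenced whole, so fewer cells expressing a gene and less of its RNA per cell cannot be told apart.

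**Figure D1:**
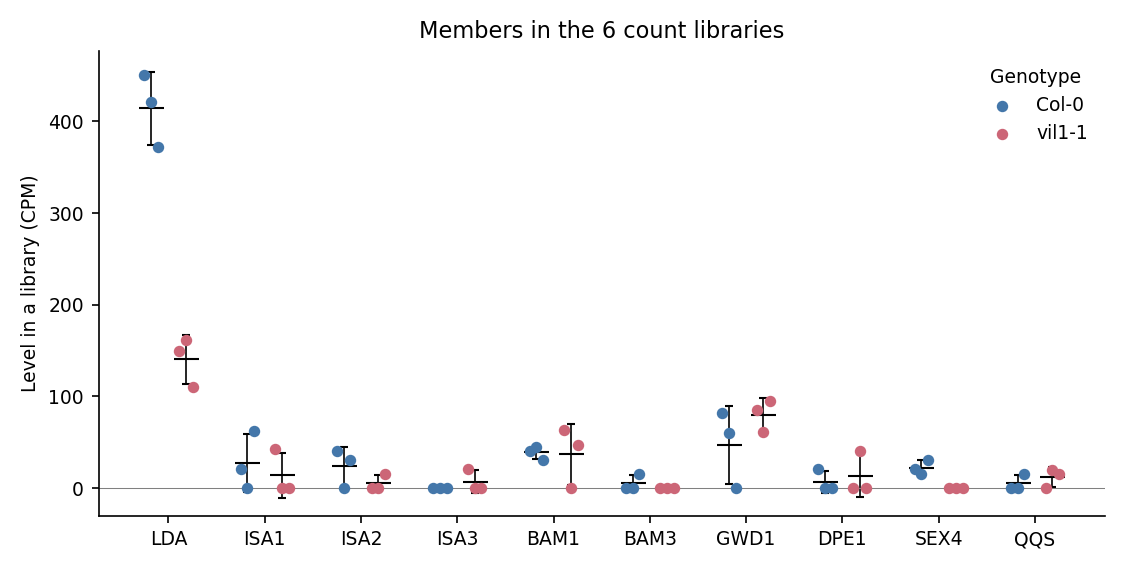
Level of each member in each library, in CPM, with Col-0 in blue and vil1-1 in red. Points are libraries, horizontal marks are means and bars are 1 SD (n = 3). LDA stands at 371.8 to 450.2 CPM in the Col-0 libraries and at 110.6 to 162.1 CPM in the vil1-1 libraries, and the other members lie at or near 0 in at least 1 genotype or overlap between the genotypes.

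The other 3 debranching genes were hardly seen in the counts. ISA1 and ISA2 encode the subunits of the isoamylase that trims amylopectin as it is made, with ISA2 the non-catalytic partner, and ISA3 encodes the isoamylase that acts mainly in breakdown. ISA1 (AT2G39930) gave 1, 0 and 4 counts in the wild type against 2, 0 and 0 in vil1-1. ISA2 (AT1G03310) gave 2, 0 and 2 counts in the wild type against 0, 0 and 1 in vil1-1. ISA3 (AT4G09020) had a single count, in vil1-1 replicate 1. The 3 genes overlap between the genotypes, and none had enough counts for the test.

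The ratio of pooled CPM, vil1-1 over Col-0, was 0.451 for ISA1 (95% exact counting interval 0.043 to 2.76) and 0.282 for ISA2 (0.0057 to 2.85). ISA1 overlaps 2 annotated genes on the other strand, AT2G09090 and AT2G39940, and reads of such partners cannot be told apart without the strand setting. LDA overlaps no annotated gene. Summed over the 4 debranching genes, Col-0 libraries held 511.6, 420.8 and 464.7 CPM and vil1-1 libraries 213.1, 162.1 and 126.4 CPM. LDA made up 89.2% of these counts in Col-0 and 84.6% in vil1-1, so the sum is in the main the level of LDA.

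The breakdown genes other than LDA did not show such a difference. GWD1 (AT1G10760), the dikinase that phosphorylates the granule, gave 4, 4 and 0 counts in the wild type against 4, 3 and 6 in vil1-1. BAM1 (AT3G23920), a plastid beta-amylase, gave 2, 3 and 2 counts in the wild type against 3, 0 and 3 in vil1-1. In both genes the libraries of the genotypes overlap.

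SEX4 (AT3G52180), the glucan phosphatase, gave 1, 1 and 2 counts in the wild type and 0 in each vil1-1 library. The ratio of its pooled CPM was 0 with an upper 95% exact counting bound of 1.71, so no difference was detectable at this depth. DPE1 (AT5G64860), the disproportionating enzyme that recycles maltotriose, gave 1, 0 and 0 counts in the wild type against 0, 2 and 0 in vil1-1. BAM3 (AT4G17090), a major leaf beta-amylase, had a single count, in Col-0 replicate 3, and overlaps 2 genes on the other strand.

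The ratio of vil1-1 over Col-0 was 1.83 for GWD1 (95% exact counting interval 0.704 to 5.1) and 0.967 for BAM1 (0.268 to 3.36). The 5 genes summed to 163.7, 120.2 and 77.5 CPM in the Col-0 libraries and to 149.2, 101.3 and 142.2 CPM in the vil1-1 libraries, ranges that overlap. All 9 members other than LDA had at most 6 counts in a library and failed edgeR's filter on low counts. With no filter none of the 9 was called (edgeR adjusted p = 0.772 to 0.966), whereas LDA was (edgeR adjusted p = 0.00941).

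Per kilobase of transcript, LDA stood first in both genotypes, at 120 ± 11.5 CPM per kb for Col-0 and 40.8 ± 7.79 CPM per kb for vil1-1 (SD, n = 3 each). BAM1 came next in Col-0 at 15.5 ± 2.88 CPM per kb, and the LDA libraries, at 108 to 131 CPM per kb, lay above all BAM1 libraries. In vil1-1 the next was QQS at 18.4 ± 16.3 CPM per kb, which rests on 2 counts and a short transcript. All other neighbours in either order overlapped in their ranges. Some members further apart did not, such as BAM1 at 12.3 to 17.9 CPM per kb and BAM3 at 0 to 7.37 CPM per kb in Col-0, on at most 3 counts in a library.

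The authors' deposited table lists a p-value for every member, also for those with too few counts for the test above. There 4 of the 10 passed the adjusted p of 0.05, 3 higher and 1 lower in the mutant. Of all genes in the authors' deposited table, 7.13% passed, 3.56% higher and 3.58% lower, and nothing is read from the comparison of these shares, since the genes were chosen on this contrast. The p-values of that table have the form of a test that treats the spread between libraries as known. Of the debranching genes, LDA was 2.24-fold lower in the authors' deposited table (log2 fold change -1.17, adjusted p = 2.29e-08). ISA1 had a log2 fold change of -0.09 there (95% interval -0.52 to 0.34), ISA2 one of 0.45 (0.04 to 0.85) and ISA3 one of 0.21 (-0.23 to 0.65). ISA2 had p = 0.0293 in the authors' deposited table, which did not pass after adjustment over all genes (adjusted p = 0.216).

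GWD1 and SEX4, which encode a dikinase and a phosphatase of the granule, both passed as higher in the mutant in the authors' deposited table. GWD1 rose 1.43-fold, a log2 fold change of 0.51 in the authors' deposited table (95% interval 0.32 to 0.70, adjusted p = 6.8e-06). SEX4 rose 1.54-fold, a log2 fold change of 0.62 in the authors' deposited table (0.25 to 0.99, adjusted p = 0.0189), whereas its 4 counts all fell in Col-0. SEX4 did not pass at an adjusted p of 0.01. Other genes of these enzyme classes did not pass in the authors' deposited table, with log2 fold changes of 0.29 for the dikinase gene PWD (adjusted p = 0.114), 0.20 for the phosphatase gene LSF2 (adjusted p = 0.648), -0.00 for its relative LSF1 (adjusted p = 0.999) and 1.33 for the dikinase gene GWD2 (95% interval -1.26 to 3.91, adjusted p = 0.682). The breakdown members BAM1, BAM3 and DPE1 did not pass in the authors' deposited table. Log2 fold changes there were 0.13 for BAM1 (-0.09 to 0.34), 0.15 for BAM3 (-0.47 to 0.77) and 0.21 for DPE1 (-0.18 to 0.60). These intervals were computed from the log2 fold changes and F statistics of that table, and they allow no statement that the 6 genes without a call were equal in the genotypes.

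The median log2 fold change of the 10 members was 0.21, beside -0.05 for the 25005 genes in the authors' deposited table. The debranching genes had a median of 0.06 there, and the 5 breakdown genes one of 0.21. ISA1 and LDA were the only members below 0 there, and LDA alone of these passed.

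QQS had the highest log2 fold change of all 25005 genes in the authors' deposited table, 5.51, or 45.5-fold higher in vil1-1 (adjusted p = 3.9e-44). The next value in the authors' deposited table was 5.44, of AT4G09455. Among the 12134 genes with a mean log2 CPM of at least 3 there, the next was 2.74, of the late embryogenesis abundant gene LEA4-5. QQS had a mean of 10.4 CPM in the authors' deposited table. If both genotypes weigh equally in that mean, this amounts to 0.446 CPM for Col-0 and 20.3 CPM for vil1-1.

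The counts could not check this difference. QQS gave 0, 0 and 1 counts in the wild type against 0, 1 and 1 in the mutant, and the genotypes overlap. Pooled over a genotype, these are 5.56 CPM for Col-0 (95% exact Poisson interval 0.141 to 31.0) and 12.5 CPM for vil1-1 (1.52 to 45.3). The intervals cover counting error only, and each holds the level given above for its own genotype from the authors' deposited table.

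**Figure D2:**
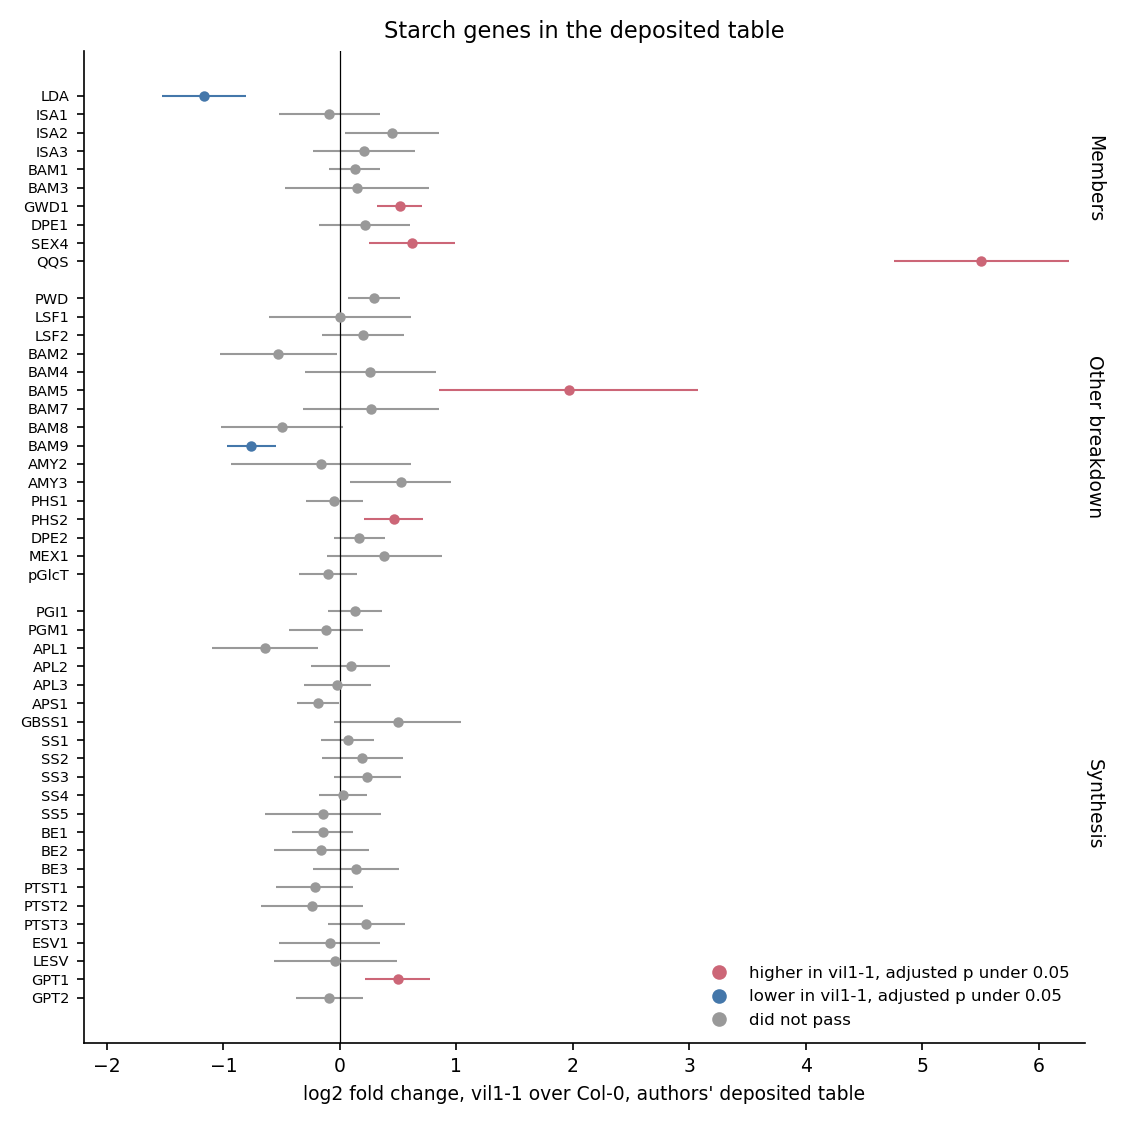
Log2 fold change, vil1-1 relative to Col-0, in the authors' deposited table for the 10 members, 16 other breakdown genes and 22 synthesis genes with a mean log2 CPM of at least 1. Points are the authors' values, bars are 95% intervals computed from their F statistics, and colour marks the genes with an adjusted p under 0.05. QQS lies at 5.51 and LDA at -1.17, and all other points lie between -0.76 and 1.96.

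Levels of LDA differed between the sources far more than those of the other members. At the mean of 18.4 CPM in the authors' deposited table, 6.24 LDA counts would be expected over the 6 libraries, and 96 were seen, 15.4 times as many. Of the 1819 genes within 0.25 of the mean log2 CPM of LDA in the authors' deposited table, 5 had a higher ratio, and their median ratio was 0.575. For the other 9 members the ratio of seen to expected counts ran from 0.269 for ISA3 to 1.81 for ISA1. GWD1, for instance, had 21 counts where 34.8 were expected from the authors' deposited table, and QQS had 3 where 3.52 were expected.

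The order of levels therefore depended on the source for LDA, which stood at a mean of 5.33 CPM per kb in the authors' deposited table, below BAM1 at 25.6 and GWD1 at 20.3. With both genotypes weighing equally in the mean, QQS would be last of the 10 in Col-0 at 0.682 CPM per kb and first in vil1-1 at 31.0, ahead of BAM1 at 26.7, and LDA would be rank 4 in Col-0 at 7.38 and rank 9 in vil1-1 at 3.29, from the authors' deposited table. The direction and approximate size of the LDA difference were shared by both, at log2 fold changes of -1.53 in the counts and -1.17 in the authors' deposited table. Both sources belong to the same series and the same comparison, so these values are not shown to be independent. What sets the higher LDA level in the count files was not tested.

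**Figure D3:**
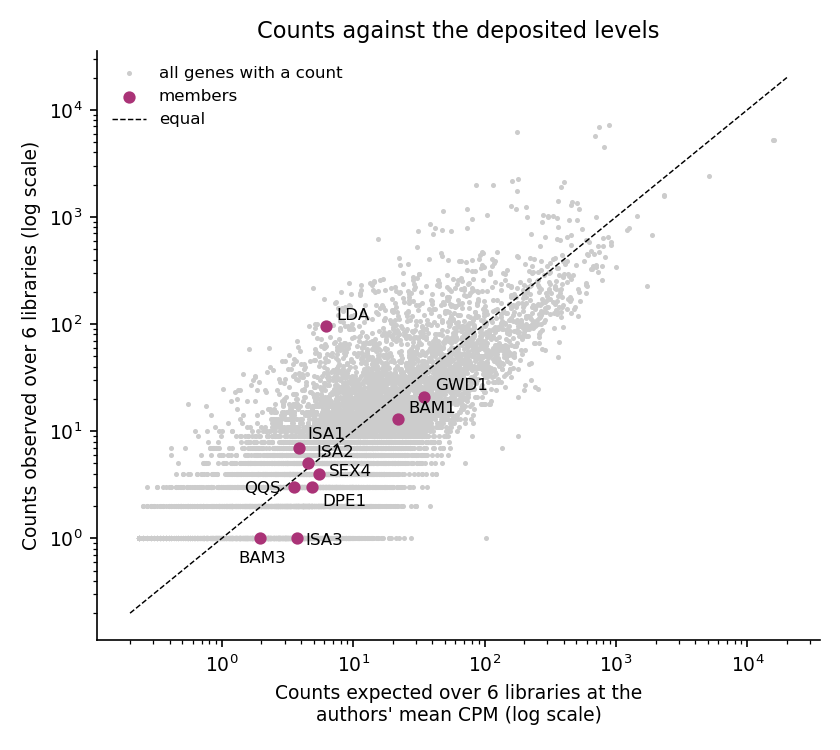
Counts seen over the 6 libraries against counts expected at the authors' mean CPM, both on log scales, for the members in purple and all table genes with at least 1 count in grey. The dashed line marks equality. LDA lies at 96 seen against 6.24 expected, and the other members lie near or below the line except ISA1 at 7 against 3.86 and ISA2 at 5 against 4.56.

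Around QQS few genes were detected. Of 25 annotated genes within 50 kb of its start, 20 are pseudogenes, 7 are listed in the authors' deposited table, and none of these was called. The highest of the 7 in level was GDU6, 3.42 kb away, with a mean log2 CPM of 0.67 and a log2 fold change of 0.19 in the authors' deposited table (adjusted p = 0.93). The other listed neighbours of QQS had log2 fold changes from -0.46 to -4.00 there. No neighbour reached a mean log2 CPM of 1 there, so a change of nearby genes would have been hard to detect. Around LDA, 20 of 31 neighbours are listed in the authors' deposited table, 16 with a mean log2 CPM of at least 1, and none was called. Of all genes there 7.13% were called, so the lack of calls among so few neighbours says little about either region. These windows were chosen after the values of QQS and LDA were seen.

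**Figure D4:**
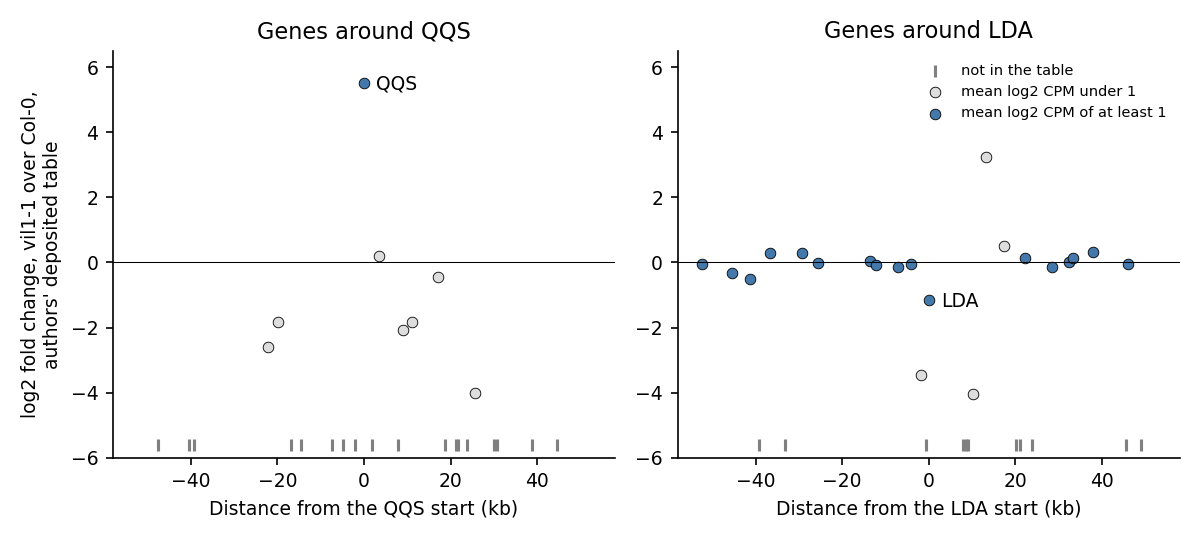
Log2 fold change, vil1-1 relative to Col-0, in the authors' deposited table for genes within 50 kb of the QQS start (left) and the LDA start (right), against the distance in kb. Blue points have a mean log2 CPM of at least 1, pale points lie below that level, and ticks at the bottom mark annotated genes that are not in the table. QQS at 5.51 and LDA at -1.17 are the only genes called in their windows.

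Among other genes of starch breakdown, 3 of the 18 listed passed in the authors' deposited table, 2 up and 1 down, beside 7.13% of all genes. BAM9, a beta-amylase relative without catalytic activity, fell, with a log2 fold change of -0.76 in the authors' deposited table (adjusted p = 1.1e-10). BAM5, a beta-amylase outside the plastid, was higher there at 1.96 (adjusted p = 0.0106) with a mean of 2.59 CPM, and PHS2, the cytosolic glucan phosphorylase, was higher at 0.46 (adjusted p = 0.00767). The list median was 0.23 in the authors' deposited table. DPE2, the cytosolic transglucosidase that takes up maltose, had 0.17 in the authors' deposited table (adjusted p = 0.49).

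In the count files BAM9 gave 1, 7 and 2 counts in the wild type against 1, 2 and 1 in the mutant, and PHS2 gave 4, 10 and 13 against 6, 6 and 10. Both genes overlap between the genotypes. DPE2 had 9 counts in each genotype.

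Of 24 genes of starch synthesis, GPT1, the plastid glucose 6-phosphate carrier, alone passed in the authors' deposited table, beside 7.13% of all genes. Its log2 fold change there was 0.50 (adjusted p = 0.00946), and the list median was -0.06. The adenosine diphosphate glucose pyrophosphorylase gene APS1 had -0.19 in the authors' deposited table (adjusted p = 0.245). From the counts, PGM1, the plastid phosphoglucomutase, averaged 197 ± 34.4 CPM for Col-0 against 230.0 ± 25.3 CPM for vil1-1 (SD, n = 3 each), a log2 difference of 0.24 (SE 0.36, edgeR adjusted p = 0.834). BE1, of the branching enzyme family, averaged 158 ± 33.7 and 175 ± 67.7 CPM (SD, n = 3 each), a log2 difference of 0.20 (SE 0.41, edgeR adjusted p = 0.899). These were the 2 of 47 other listed genes with enough counts, and neither was called by edgeR, DESeq2 or limma-voom, nor had either an unadjusted edgeR p under 0.05. In the authors' deposited table PGM1 had a mean of 23.0 CPM and BE1 one of 37.3 CPM. Their counts were 9.36 and 4.43 times those expected from these means, an excess that LDA also showed. What sets these higher levels was not tested. BE1 overlaps AT3G20430 on the other strand.

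NF-YC4, the transcription factor subunit that binds the QQS protein, had a log2 fold change of -0.00 in the authors' deposited table (95% interval -0.31 to 0.31). The energy-sensing kinase genes KIN10 and KIN11 and the hexokinase gene HXK1 had -0.19, 0.07 and 0.20 there, and none of these 4 passed. HXK1 gave 4, 5 and 2 counts in the wild type against 1, 2 and 0 in vil1-1. KIN10 gave 0, 5 and 1 counts in the wild type against 0 in each vil1-1 library. Its ratio of vil1-1 over Col-0 had an upper 95% exact counting bound of 0.958, which leaves out the spread between libraries. Most KIN10 counts came from Col-0 replicate 2 alone. KIN11 gave 1, 3 and 3 counts in the wild type against 1, 2 and 2 in vil1-1. These 3 genes overlap between the genotypes, and none of the 3 reached the filter on low counts.

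By Pearson correlation of log2 CPM over the 6 libraries, the genes most like LDA among 941 others were OMT1 (r = 0.992), CHL-CPN10 (r = 0.987) and TUA2 (r = 0.981). None of the 3 was called (edgeR adjusted p = 0.221 to 0.632), and their log2 fold changes of -0.34, -0.57 and -0.33 were smaller than that of LDA. These values describe 6 libraries that share genotype and depth.

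Listed seed programme genes differed between the genotypes beside LDA and QQS. The marker lists were chosen with earlier results of these data known, so their values are descriptions. Nothing is read from the comparison of their calls with the share over all genes. All 7 seed programme markers rose in the mutant in the authors' deposited table, where 3.56% of all genes were called higher, and their summed level ran from 165.3 to 347.9 CPM across the Col-0 libraries and from 788.6 to 1236.3 CPM across the vil1-1 libraries. LEA4-5, XERO1 and PER1 carried most of that sum, whereas OLEO1 gave 1, 0 and 2 counts in the wild type against 0, 0 and 1 in the mutant. Of 3 endosperm markers, MAN7 rose, with a log2 fold change of 1.14 in the authors' deposited table (adjusted p = 1.05e-11) and EPR1 had 0.14 (adjusted p = 0.384), with sums of 77.5 to 135.2 CPM for Col-0 and 0 to 162.1 CPM for vil1-1. None of 5 listed seed coat markers and none of 3 columella and root cap markers passed in the authors' deposited table. Seed coat sums were 75.1 to 123.9 CPM for Col-0 and 40.5 to 110.6 CPM for vil1-1, with BAN, TT12, TT10 and AHA10 at 0 counts, as were all 3 columella and root cap markers. The part of these genes in the results for LDA and QQS was not tested.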

How the data were processed

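Count tables of 3 Col-0 and 3 vil1-1 libraries were used as the authors deposited them, as whole-number counts per gene with no normalization. Bowtie2, featureCounts, edgeR and TAIR10 are named in the submitters' processing notes. Library kit, strand setting and the treatment of reads with several matches were not given in the sources used here.

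The authors' deposited table holds, per the file headers, each gene's log2 fold change, its mean log2 CPM, a score (the F statistic) and an unadjusted p-value. Which libraries and filters lie behind the table is not stated there. Its p-values were adjusted here by Benjamini-Hochberg over its 25005 genes. For the 24290 genes with F under 20, the unadjusted p-values lay within 0.00195 in log10 of a chi-square tail of F. Such p-values treat the spread between libraries as known, and so do the intervals. Intervals rest on a standard error equal to the size of the log2 fold change over the root of F, which is approximate for QQS, and they are not the authors'.

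The main test was edgeR 4.0.16 (R 4.3.3), quasi-likelihood F test with TMM, its default filter on low counts and genotype as the only term, over all genes, at an adjusted p of 0.05. CPM are counts per 1000000 of a library's total. The code was tested on simulated data. Other settings were DESeq2 1.42.0, limma-voom (limma 3.58.1), other scalings and filters, a replicate block and each library left out.

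Members and lists were chosen with earlier results of these data known. The rule for other named genes took those called, plus the 3 of each list with the highest mean CPM, and the 3 genes most correlated with a tested member. Some genes, such as GWD2, LSF1 and LSF2, were named outside this rule. Genes near QQS and LDA were chosen after values were seen. The members' models, promoters and coding sequence are from RefSeq, TAIR10.1; all 10 loci matched by locus tag, and lengths are of the transcript with the longest coding sequence. The sign of the authors' log2 fold changes follows the order of genotypes in the table's name. Counting intervals and floors cover counting error only. Replicate libraries of a genotype were no copies: their counts differed beyond sampling noise in each pair (chi-square per degree of freedom 1.11 to 1.46).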

Additional observations from a re-analysis of the deposited data

How the results depend on the processing

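The log2 fold change of LDA was between -1.66 and -1.34 in all 15 alternatives. It was called in 13 of them, the exceptions being DESeq2 (-1.55) and Col-0 replicates 2 and 3 left out together (-1.66), so that the number of members called went from 1 to 0 in these 2 settings. With 1 library left out, LDA stayed between -1.65 and -1.34 (edgeR adjusted p = 0.00289 to 0.035). Over all genes edgeR called 35, against 8 in DESeq2, 21 with no filter and 7 without Col-0 replicates 2 and 3 together, and 19 to 36 with 1 library left out, the lowest without vil1-1 replicate 2. The 8 of DESeq2 were all among the 35. The cause of these changes was not tested, though fewer libraries or more genes tested enter some of them. The number of neighbouring members with separate ranges was 1 in each genotype, and 1 to 2 with 1 library left out.

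With the replicate number as a block, edgeR called the same 35 genes and gave LDA -1.52 (adjusted p = 0.00523). Deviations of same-numbered libraries correlated at 0.08, -0.03 and 0.02, and those of differently numbered libraries at -0.11 to 0.10. At this depth such values cannot tell whether the numbers pair the samples. No other listed starch gene was called from the counts in any setting. At an adjusted p of 0.01 in the authors' deposited table, the members called went from 4 to 3 (SEX4 lost) and the other starch genes called from 4 to 3 (BAM5 lost). Depth limits 9 of the 10 members to at most 6 counts in a library.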
